A study of Mus musculus with 5 samples.

Results

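The genes described here encode the nuclear subunits of mitochondrial oxidative phosphorylation, measured in the dentate gyrus (DG) of mice housed with or without a running disk. Members were chosen by symbol alone, as the Nduf subunits of complex I (without the Ndufaf assembly factors), Sdha to Sdhd of complex II, the Uqcr genes and Cyc1 of complex III, the carrier Cycs, the Cox4i, Cox5, Cox6, Cox7 and Cox8 subunits of complex IV and the Atp5 genes of complex V, with pseudogenes left out. This gave 87 of 23420 gene symbols. Of these, 80 reached an average of 5 or more on the regularized log scale, as did 13550 genes in all, and these are called expressed.

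All mice were wild-type CD1 animals of 4 months, an outbred strain, and every library was made from polyA RNA of the DG after 4 weeks of housing. The LD library held pooled RNA of 8 mice housed singly with a locked disk, the CE (complex environment) library that of 8 mice housed in groups with a locked disk and tunnels, and the RUN library that of 8 mice housed singly with a running disk. CE therefore differed from LD in company as well as in objects. The same 8 runners were also split by distance, the 4 that ran less giving the pool of L-RUN and the 4 that ran more that of H-RUN. Each group was thus 1 library without a replicate, and RUN was not independent of L-RUN and H-RUN, so that differences between groups are given below as descriptions with no test and cannot be told apart from differences between the pooled mice or libraries.

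Oxidative phosphorylation takes place in the inner mitochondrial membrane. Complexes I and II pass electrons from NADH and succinate to ubiquinone, complex III passes them on to cytochrome c, and complex IV hands them to oxygen. Complexes I, III and IV pump protons out of the matrix, and complex V (ATP synthase) uses their return to make ATP, on which neurons depend for firing and synaptic transmission. Most of the subunits are encoded in the nucleus, and the few encoded in mitochondrial DNA had no symbol in the tables used here. Bulk tissue was measured, in which more cells of a type and more RNA per cell cannot be told apart.

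The values are regularized log (rlog) values on the log2 scale, shrunken towards each gene's mean, so that differences of low genes are understated. The only measure of error came from the RUN library, since each of its values could be set against the mixture of L-RUN and H-RUN that it should equal. This gave a technical SD for the difference between 2 libraries of 0.022 to 0.044 at the expressed members (median 0.028) and of 0.036 over all expressed genes, which covers library preparation and sequencing but not mice. RUN differed from the computed mixture by a median of 0.001 over the members. The difference ranged from -0.059 for Ndufb6 to 0.12 for Ndufb7, 42 members lying above 0. Cox4i1, with 0.108, was the member next to Ndufb7. The markers of DG granule cells listed for this work were all expressed, 7 of 7, and their summed level lay between 14.63 and 14.73 rlog units in the 5 libraries. Single granule cell markers went both ways, since in L-RUN Prox1 differed from LD by -0.407 and C1ql2 by 0.370, and in CE 5 of the 7 were at least 0.1 lower. Of the 5 blood markers listed, 3 had a symbol in the data, and no marker was expressed. Hba-a1 and Hba-a2 were listed at 0, and Hbb-bs and Hbb-bt had no symbol. How reads matching several genes were counted is not known here, so these values cannot show whether blood was present.

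The proximal promoter sequences of 5 members are shown because these genes either differed most from LD or hold matches to a motif of nuclear respiratory factor 1 (NRF1), a transcription factor known for its sites in front of respiratory genes. Of the 80 expressed members, 64 had an entry in the RefSeq promoter table (build GRCm38.p6), and the 250 bases before the annotated start were searched on both strands. Each sequence below runs 5′ to 3′ on the gene's strand, is the longest stretch of that window that no annotated exon covers, and has motif matches in capitals. Cox7b and Cox5b had the largest differences from LD of all members, and hold none of the 4 motifs searched. Among members with an NRF1 match in such a stretch, Cox6a1, Ndufb4 and Atp5h varied most over the libraries.
Cox7b, chrX:106015450-106015699, plus strand: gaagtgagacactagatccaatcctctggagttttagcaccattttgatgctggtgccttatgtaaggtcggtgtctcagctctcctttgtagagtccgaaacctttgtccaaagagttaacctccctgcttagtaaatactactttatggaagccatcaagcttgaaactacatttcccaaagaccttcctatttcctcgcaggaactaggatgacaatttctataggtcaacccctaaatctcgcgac
Cox5b, chr1:36691237-36691448, plus strand: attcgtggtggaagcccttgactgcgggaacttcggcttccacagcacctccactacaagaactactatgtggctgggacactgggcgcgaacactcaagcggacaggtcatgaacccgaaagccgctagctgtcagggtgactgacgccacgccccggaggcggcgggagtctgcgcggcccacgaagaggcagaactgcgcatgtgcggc
Cox6a1, chr5:115348982-115349129, minus strand: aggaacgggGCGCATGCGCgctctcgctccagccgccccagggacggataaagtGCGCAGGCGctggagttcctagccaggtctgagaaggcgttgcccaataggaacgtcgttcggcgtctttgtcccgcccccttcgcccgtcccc
Ndufb4, chr16:37654454-37654618, minus strand: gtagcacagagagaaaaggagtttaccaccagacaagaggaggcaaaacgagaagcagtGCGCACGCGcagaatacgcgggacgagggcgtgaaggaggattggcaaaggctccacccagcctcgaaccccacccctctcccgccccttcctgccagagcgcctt
Atp5h, chr11:115419963-115420127, minus strand: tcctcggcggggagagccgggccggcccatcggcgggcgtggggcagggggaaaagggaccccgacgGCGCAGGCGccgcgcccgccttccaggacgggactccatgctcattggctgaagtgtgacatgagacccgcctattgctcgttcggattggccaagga

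The NRF1 motif (GCGCANGCG, which as a near palindrome can match both strands at once, as in the first run of capitals of Cox6a1) was found in the whole window of 15 of the 64 members, or 23.4%, against 12.3% of 10058 expressed genes with an entry and 5.2% of all 32851 windows. The ETS motif of GA-binding protein (CCGGAAG) was held by 12 members (18.8%), against 14.6% of expressed genes and 6.9% of all windows. Matches to the YY1 motif (ATGGCGG) stood in front of 4 members (6.2%, against 4.4% and 2.2%), and matches to the estrogen-related receptor motif (AAGGTCA) in front of 5 members (7.8%, against 3.4% and 4.1%). None of the 4 motifs contains another, and their matches may overlap. Members and expressed genes were counted if any of their windows held a match. The shares of all windows count each window singly and include genes not expressed, so they differ in unit from the shares of genes. A match is a run of letters and not a bound site, and none of these shares was tested.

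Members were higher in every other library than in LD as a group. The median difference from LD over the 80 expressed members was 0.060 for CE, 0.123 for RUN, 0.135 for L-RUN and 0.092 for H-RUN, where the median of all 13550 expressed genes lay between -0.004 and -0.001. Above LD lay 73 members for RUN and H-RUN alike, 71 for L-RUN and 58 for CE. LD held the lowest of the 5 values for 54 of the 80 members, against 25.8% of all expressed genes, and L-RUN held the highest for 45, against 24.1%. LD was the highest library for 4 members (28.1% of all expressed genes), CE for 11 (22.9%), RUN for 14 (10.3%) and H-RUN for 6 (14.7%).

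Most of these differences were small. A difference of at least 0.1 above LD was seen for 30 members in CE, where 12.8% of all expressed genes passed this size, for 48 in RUN (background 12%), for 51 in L-RUN (16.3%) and for 37 in H-RUN (9.45%). In the other direction, 1 member lay 0.1 or more below LD in CE (Cox7a2l, background 14%), 0 in RUN (15.3%), 1 in L-RUN (Ndufs1, 20.5%) and 0 in H-RUN (11.6%). The cut-off of 0.3 used by the study was passed by 2 members, Cox5b and Cox7b, and in L-RUN alone, where 3.13% of all expressed genes passed it in either direction. No member passed it in CE (background 0.598%), RUN (1.31%) or H-RUN (0.827%). The members nearest below the cut-off were Ndufs7 with 0.277 and Uqcr11 with 0.275 in L-RUN, and Cox5b with 0.276 and Cox7b with 0.270 in CE.

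**Figure D1:**
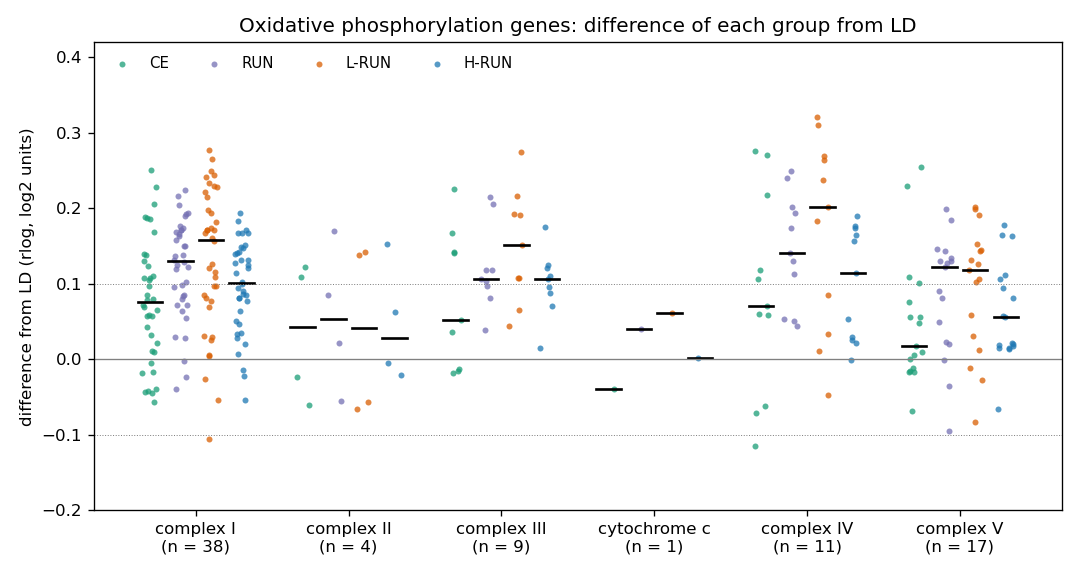
Difference of each expressed member from LD (y axis, rlog on the log2 scale) by complex (x axis), with 1 point per gene and 1 colour for each group (CE, RUN, L-RUN, H-RUN). Most points of complexes I, III, IV and V lie above 0 in all 4 groups, and those of complex II lie on both sides of 0. The medians of complex V are below those of I, III and IV in CE and H-RUN.

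A trend with transcript length ran through these libraries, and the members are short. Their median transcript length was 865 nt against 3184 nt for expressed genes with a length, and 47 of the 79 members with a length were under 1000 nt, against 4.75% of expressed genes. Over all 12765 expressed genes with a length, the L-RUN difference from LD had a Spearman's rho with length of -0.53 and the CE difference one of -0.32, as a description across genes, which are not independent. Expressed genes under 1000 nt as a class had a median L-RUN difference of 0.112, and longer ones one of -0.008. Members under 1000 nt had a median of 0.171 in L-RUN, and longer members one of 0.091. In H-RUN the members' medians were closer, at 0.102 for short and 0.084 for longer ones.

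With the trend with length removed by a lowess curve, the members' median difference from LD became 0.027 for CE, 0.040 for RUN, 0.050 for L-RUN and 0.049 for H-RUN. It stayed above 0 in all 4 groups, but the members at least 0.1 higher fell in number to 18 for CE, 15 for RUN, 22 for L-RUN and 16 for H-RUN, out of 79 (background after removal 12.4%, 9.29%, 13.5% and 8.89%). Those above LD numbered 50 for CE, 56 for RUN, 48 for L-RUN and 58 for H-RUN. The median of all expressed genes with a length then lay between -0.001 and 0.001 in the 4 groups. The part of length in the differences was not tested beyond this. The GC content of the members' transcripts, with a median of 51.3%, was near that of expressed genes (50.4%), and removing the trend with GC gave medians of 0.060, 0.114, 0.142 and 0.092 in the same order.

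**Figure D2:**
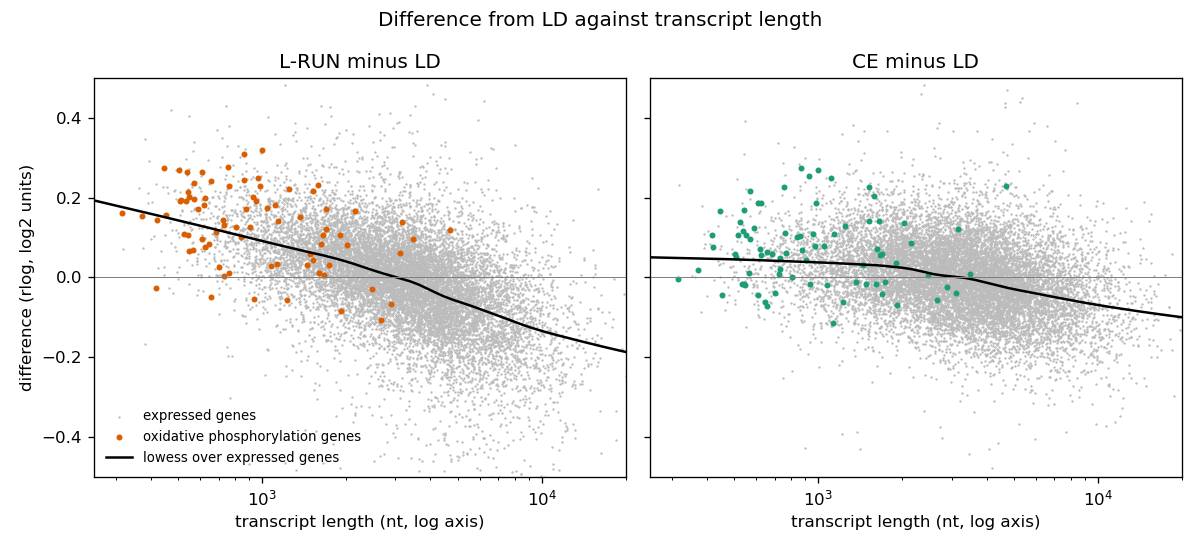
Difference from LD (y axis, rlog on the log2 scale) against transcript length in nt (x axis, log axis), with expressed genes in grey, members in colour and a lowess curve over expressed genes in black. Members crowd at the short end, where the curve itself lies above 0.

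Complex I is the largest complex and takes up electrons from NADH. All 38 of its members were expressed, and their median difference from LD was 0.076 for CE, 0.131 for RUN, 0.159 for L-RUN and 0.101 for H-RUN. At least 0.1 above LD were 15, 24, 24 and 20 of them in this order. After removal of the trend with length the medians were 0.041, 0.057, 0.047 and 0.055. The 7 core subunits, which carry the flavin and the iron-sulphur clusters, had a median of 0.121 in L-RUN. The other 31 members, called supernumerary here for the subunits that surround the core, had one of 0.161. This order turned with the trend with length removed, at 0.067 for the core and 0.042 for the supernumerary class. That class holds Ndufa4 and Ndufa4l2 by their symbols alone, and Ndufa4l2 differed from LD by -0.054 in L-RUN.

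Ndufs7, a core subunit near the ubiquinone site, had the largest L-RUN difference within complex I. Its level was 10.69 for LD, 10.92 for CE, 10.88 for RUN, 10.97 for L-RUN and 10.87 for H-RUN. LD stood apart below the other libraries, by 0.18 to 0.28, with a technical SD of 0.031. The other core subunits were not alike, since Ndufs8, which also carries iron-sulphur clusters, was 0.229 higher in L-RUN than in LD and Ndufv1, which holds the flavin, 0.006 higher. Ndufs1, the largest subunit and the one core member lower than LD in all other libraries, measured 12.040 for LD, 11.984 for CE, 12.001 for RUN, 11.934 for L-RUN and 12.018 for H-RUN.

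Among the supernumerary subunits, Ndufa7 measured 10.19 for LD, 10.38 for CE, 10.39 for RUN, 10.46 for L-RUN and 10.36 for H-RUN. Ndufa12 stood at 10.78 for LD, 11.03 for CE, 10.95 for RUN, 10.96 for L-RUN and 10.91 for H-RUN. Both were lowest in LD, but Ndufa12 was highest in CE and Ndufa7 in L-RUN. Ndufa4, a member of complex I by its symbol that is now often counted as a subunit of complex IV, measured 12.41 for LD, 12.37 for CE, 12.50 for RUN, 12.51 for L-RUN and 12.49 for H-RUN. It was therefore higher in the running libraries than in both LD and CE, by 0.077 to 0.098 against LD, at a technical SD of 0.022. The trend with length is left in these values, and the Ndufa4 transcript has 610 nt. All expressed genes under 1000 nt had medians of 0.089 for RUN, 0.112 for L-RUN and 0.054 for H-RUN, so that Ndufa4 lay near other short genes.

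Ndufa1, a small membrane subunit, was the member with the lowest L-RUN value relative to H-RUN. It measured 10.29 for LD, 10.40 for CE, 10.42 for RUN, 10.26 for L-RUN and 10.44 for H-RUN. The low runners were thus 0.175 below the high runners and beside LD, and RUN lay 0.065 above the computed mixture of the runners. Ndufs5 and Ndufa4l2 lay far below the other complex I members, with per-kilobase LD levels of 7.69 and 5.44 (rlog minus log2 of length in kilobases), where the others ranged from 8.89 to 13.13. Of the 50-base stretches of the Ndufs5 transcript, 41.2% also occur in another gene, and of those of Ndufa4l2 0%. Reads of Ndufs5 may have been split or left out in counting, but whether this bears on its level was not tested.

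Complex II, succinate dehydrogenase, is the only respiratory complex with no subunit encoded in mitochondrial DNA, and is also an enzyme of the citric acid cycle. Its 4 genes did not move together. Sdha, the flavoprotein, measured 13.30 for LD, 13.28 for CE, 13.24 for RUN, 13.23 for L-RUN and 13.28 for H-RUN. Sdhb, the iron-sulphur subunit, measured 11.47, 11.58, 11.55, 11.61 and 11.53 in the same order. Sdha was highest and Sdhb lowest in LD.

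The membrane anchors of complex II differed from each other as well. Sdhc measured 11.04 for LD, 11.16 for CE, 11.20 for RUN, 11.17 for L-RUN and 11.19 for H-RUN, and Sdhd 11.24, 11.17, 11.26, 11.18 and 11.23. Sdhc was lowest in LD by at least 0.12, whereas Sdhd in LD lay between the other values. The median of the 4 was 0.043 for CE, 0.054 for RUN, 0.041 for L-RUN and 0.029 for H-RUN. Their summed level was 14.09 in LD and between 14.09 and 14.11 in the other libraries.

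Complex III, the cytochrome bc1 complex, had 9 members, all expressed and all above LD in RUN, L-RUN and H-RUN. Their medians were 0.052 for CE, 0.107 for RUN, 0.151 for L-RUN and 0.107 for H-RUN, and 0.009, 0.032, 0.053 and 0.069 with the trend with length removed. The 4 core members (Uqcrc1, Uqcrc2, the Rieske protein Uqcrfs1 and cytochrome c1, Cyc1) had a median of 0.107 in L-RUN, and the 5 small subunits one of 0.192. With the trend with length removed these were 0.057 and 0.053.

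Uqcr11, the smallest subunit of complex III, measured 11.13 for LD, 11.30 for CE, 11.35 for RUN, 11.41 for L-RUN and 11.31 for H-RUN. Uqcrq, another small subunit, measured 10.90 for LD, 11.12 for CE, 11.10 for RUN, 11.11 for L-RUN and 11.02 for H-RUN. Uqcrb, the binding protein of the reductase, measured 11.32 for LD, 11.30 for CE, 11.44 for RUN, 11.51 for L-RUN and 11.43 for H-RUN. Uqcr11 and Uqcrq were lowest in LD, whereas for Uqcrb LD and CE were alike and below the running libraries. Uqcrb shares 43.4% of its 50-base stretches with other genes. Cycs, the somatic cytochrome c that carries electrons from complex III to complex IV, moved little, with 12.66 for LD, 12.62 for CE, 12.70 for RUN, 12.72 for L-RUN and 12.66 for H-RUN.

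Complex IV, cytochrome c oxidase, had the largest medians of the 5 complexes in RUN, L-RUN and H-RUN as measured, but with the trend with length removed in L-RUN alone. Of its 18 members 11 were expressed, with medians of 0.071 for CE, 0.141 for RUN, 0.201 for L-RUN and 0.114 for H-RUN. At least 0.1 above LD were 5, 8, 7 and 6 of the 11. The medians with the trend with length removed were 0.028, 0.056, 0.065 and 0.054.

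Cox7b, a small membrane subunit, had the largest difference from LD of all members. Its level was 12.25 for LD, 12.52 for CE, 12.50 for RUN, 12.57 for L-RUN and 12.42 for H-RUN, and L-RUN was higher than LD by 0.32, a fold of 1.25. Cox5b, a subunit on the matrix side, measured 12.13 for LD, 12.40 for CE, 12.37 for RUN, 12.44 for L-RUN and 12.29 for H-RUN, a fold of 1.24 between L-RUN and LD. Both genes had the same order of libraries, with LD lowest, H-RUN next and L-RUN highest, and CE between RUN and L-RUN. The differences from LD were 0.16 or more in every library, at a technical SD of 0.022. Cox5b shares 25.9% of its 50-base stretches with another gene, and Cox7b 0.6%.

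The gene of Cox7b lies on chromosome X at 106015700 to 106022450 and that of Cox5b on chromosome 1 at 36691449 to 36693681 (GENCODE annotation of GRCm38, plus strand), each right after the exon-free promoter stretch shown above. Cox6c measured 12.35 for LD, 12.41 for CE, 12.55 for RUN, 12.62 for L-RUN and 12.53 for H-RUN. For this gene CE lay near LD, 0.135 below RUN.

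Several subunits of complex IV exist as isoforms of different tissues, and in the DG the widely expressed forms were present and the forms of muscle, lung or testis were under the filter. Per kilobase in LD, Cox4i1 had a level of 13.62 and the lung form Cox4i2 one of 5.22. Cox6a1 had a level of 13.19 per kilobase and the heart and muscle form Cox6a2 one of 4.55, while Cox6b1 had 12.79 and the testis form Cox6b2 5.59. Cox7a2 had 12.32 per kilobase and Cox7a2l 11.82, against 5.46 for the heart and muscle form Cox7a1. Cox7b had 12.25 and Cox7b2 5.61, and Cox8a had 13.55 against 3.72 for the heart and muscle form Cox8b. These 6 low forms, together with Cox8c, listed at 0 in every library, are the 7 members that did not pass the filter. Their largest difference from LD in any library was 0.068, for Cox6a2 in CE, at values of 3.97 to 4.06 rlog units where shrinkage is strong.

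The widely expressed isoforms differed among themselves across groups. Cox6a1 measured 12.39 for LD, 12.60 for CE, 12.59 for RUN, 12.62 for L-RUN and 12.58 for H-RUN, and Cox8a 12.69, 12.79, 12.82, 12.89 and 12.80. Both were lowest in LD. Cox6b1 measured 12.10 for LD, 12.17 for CE, 12.21 for RUN, 12.28 for L-RUN and 12.13 for H-RUN, with H-RUN beside LD.

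Cox4i1, the largest nuclear subunit of complex IV, measured 13.23 for LD, 13.29 for CE, 13.37 for RUN, 13.24 for L-RUN and 13.28 for H-RUN. RUN was above both libraries made of the same mice, with a difference of 0.141 from LD against 0.010 in L-RUN and 0.054 in H-RUN. Cox7a2 measured 11.72 for LD, 11.65 for CE, 11.77 for RUN, 11.67 for L-RUN and 11.74 for H-RUN. Cox7a2l, which takes part in joining complexes III and IV, measured 11.999 for LD, 11.884 for CE, 12.043 for RUN, 12.032 for L-RUN and 11.997 for H-RUN. For both genes CE was the lowest library, and no running library differed from LD by 0.1.

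Complex V, the ATP synthase, had 17 members, all expressed, with medians of 0.018 for CE, 0.122 for RUN, 0.119 for L-RUN and 0.056 for H-RUN. At least 0.1 above LD were 4, 9, 11 and 5 of them. With the trend with length removed, for the 16 with a length, the medians were -0.018, 0.021, -0.003 and 0.007, and thus on either side of 0. Atp5s (coupling factor B) and Atp5sl are included by their symbols but are not subunits of the enzyme in the strict sense.

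The subunits of F1, the catalytic head, and of its central stalk did not move together. Their medians over 5 genes were 0.006 for CE, 0.020 for RUN, 0.031 for L-RUN and 0.018 for H-RUN. Atp5b, the catalytic beta subunit, had the highest per-kilobase level of all members, 13.84 in LD, and lay below LD by 0.066 to 0.096 in the other libraries. Atp5e, the epsilon subunit of the central stalk, was higher than LD by 0.143 for RUN, 0.144 for L-RUN and 0.164 for H-RUN. Atp5d, the delta subunit of that stalk, measured 11.73 for LD, 11.98 for CE, 11.91 for RUN, 11.93 for L-RUN and 11.89 for H-RUN. For Atp5d, LD was the lowest and CE the highest value.

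Atp5g1, Atp5g2 and Atp5g3 encode the same mature c subunit of the proton-driven ring, with different import sequences. Atp5g1 measured 11.65 for LD, 11.88 for CE, 11.85 for RUN, 11.77 for L-RUN and 11.83 for H-RUN. Atp5g2 measured 11.20, 11.25, 11.33, 11.33 and 11.26, and Atp5g3 12.43, 12.44, 12.55, 12.58 and 12.54. All were lowest in LD, but CE was the highest library for Atp5g1 and lay within 0.05 of LD for Atp5g2 and Atp5g3. Per kilobase in LD, Atp5g3 stood at 12.90, Atp5g2 at 11.65 and Atp5g1 at 9.41, the last over a reference transcript of 4715 nt that may be longer than the one expressed. Atp5g2 shares 87.4% of its 50-base stretches with other genes and is uncertain for that reason.

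Atp5h, subunit d of the peripheral stalk, measured 12.25 for LD, 12.31 for CE, 12.38 for RUN, 12.45 for L-RUN and 12.31 for H-RUN. The low runners were 0.144 above the high runners, and CE and H-RUN were alike. Of the 50-base stretches of Atp5h, 50.5% also occur in other genes. The 4 peripheral stalk subunits had a median of 0.114 for the low and 0.039 for the high runners, which became 0.008 and -0.007 with the trend with length removed. The 3 small membrane subunits (Atp5j2, Atp5k and Atp5l, the last with 84.8% of its stretches shared) had medians of 0.153 and 0.020, which became -0.012 and -0.043.

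**Figure D3:**
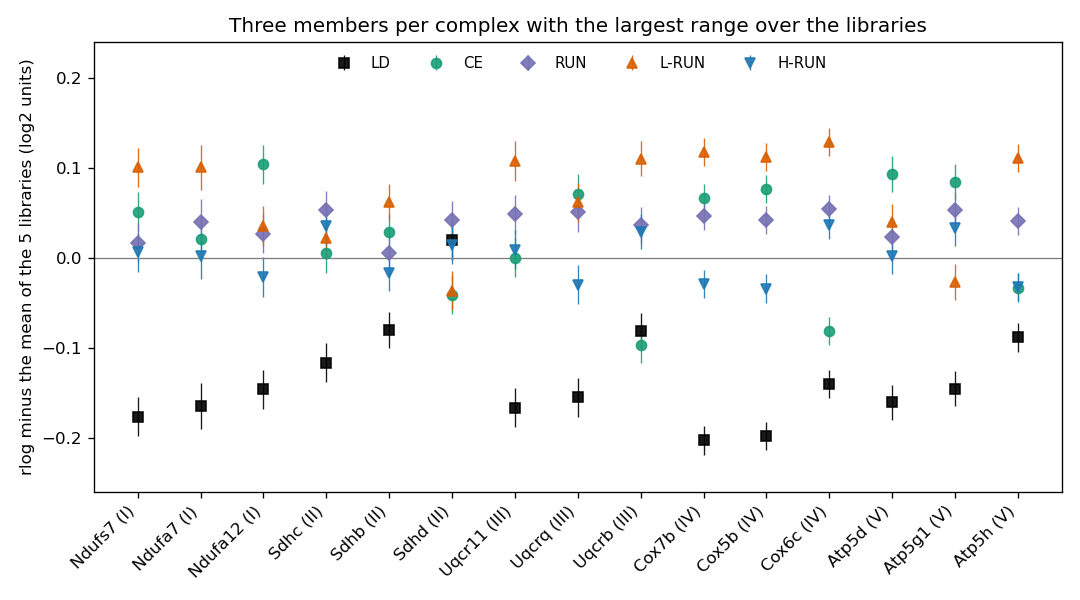
rlog value minus the mean of the 5 libraries (y axis, log2 units) for the 3 members of each complex with the largest range (x axis), with 1 marker per library and bars for the technical SD of 1 library. LD is the lowest marker for most genes, with Sdhd and Uqcrb among the exceptions, and the highest marker is L-RUN for some and CE for others.

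The libraries of the low and the high runners were compared next. The median of L-RUN minus H-RUN was 0.045 over the members, and 58 of 80 were higher in L-RUN, against 6592 of 13550 expressed genes. At least 0.1 higher in L-RUN were 11 members, or 13.8% (11 of 80), near the background of 10.8%, and 1 member (Ndufa1) was that much lower, against 14%. With the trend with length removed the median was -0.007, and 34 of 79 members were above 0. For 51 members the RUN value lay between those of the low and the high runners, and for 17 above both.

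Company and objects were compared with running through CE and RUN. The median of CE minus RUN was -0.048, and 24 of the 80 members were higher in CE, against 6834 of 13550 expressed genes. No member was at least 0.1 higher in CE, against 11.6% of all expressed genes, and 15 members were at least 0.1 lower, against 8.65%. The lowest were Ndufc1 with -0.176, Ndufb2 with -0.171 and Ndufs4 with -0.165, all supernumerary subunits of complex I. With the trend with length removed the median was -0.008, with 5 members lower and 2 higher by that size (background 10.7% for higher, not computed for lower). Since all differences from LD share the LD library, CE was also taken as the baseline. The median was then 0.048 for RUN, 0.064 for L-RUN and 0.021 for H-RUN, with 15, 25 and 11 members at least 0.1 above CE (background 8.65%, 12.9% and 9.37%). Cox5b and Cox7b then lay below the baseline in RUN, at -0.035 and -0.020, and in H-RUN, at -0.111 and -0.096, but above it in L-RUN.

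The other genes of mitochondrial energy metabolism were described by lists. The 37 expressed assembly factors of the complexes had medians of 0.010 for CE, 0.033 for RUN, 0.050 for L-RUN and 0.025 for H-RUN, all below those of the subunits, and -0.015, -0.005, -0.010 and 0.008 with the trend with length removed. For the 76 genes of the mitochondrial ribosome, which translates the subunits encoded in mitochondrial DNA, the medians were 0.028, 0.057, 0.076 and 0.038. With the trend with length removed they were 0.003, 0.012, 0.017 and 0.007. The 88 expressed genes of the cytosolic ribosome, a further class of short transcripts, had medians of 0.035, 0.087, 0.137 and 0.020, in L-RUN like that of the members and in H-RUN below it. These became 0.003, 0.011, 0.032 and -0.019 with the trend with length removed, for the 87 genes with a length.

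Glycolysis (16 genes) had medians of 0.080 for CE, 0.042 for RUN, -0.014 for L-RUN and 0.063 for H-RUN and the citric acid cycle (13 genes) had 0.052, 0.038, 0.000 and 0.047. In both lists CE had the highest median of the 4 groups, unlike the members. Gapdh, the enzyme that makes the NADH of glycolysis, measured 15.33 for LD, 15.63 for CE, 15.52 for RUN, 15.50 for L-RUN and 15.49 for H-RUN. The 10 genes of exchange with the cytosol (adenine nucleotide, phosphate and pyruvate carriers and porins) had medians of 0.016, 0.067, 0.090 and 0.070, and the 8 genes that remove superoxide and peroxide 0.069, 0.061, 0.097 and 0.066. With the trend with length removed these were -0.014, 0.014, 0.027 and 0.036 for exchange and 0.041, -0.002, 0.031 and 0.018 for removal.

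The 14 regulators of mitochondrial biogenesis went both ways, with medians of 0.002 for CE, 0.003 for RUN, -0.035 for L-RUN and -0.002 for H-RUN. At least 0.1 above LD were 0, 2, 2 and 0 of them, and as much below it 1, 1, 3 and 2. Ppargc1b, a coactivator related to PGC-1alpha, had the largest difference, -0.287 in L-RUN, and Tfb1m, a mitochondrial rRNA methyltransferase, was 0.147 higher in RUN. With the trend with length removed the medians were 0.006, 0.032, 0.019 and 0.024, in RUN near the 0.040 of the members. Ppargc1a, the coactivator PGC-1alpha that raises respiratory gene expression in muscle, measured 10.21 for LD, 10.26 for CE, 10.22 for RUN, 10.14 for L-RUN and 10.22 for H-RUN. Nrf1, whose motif is shown above, measured 9.30, 9.23, 9.25, 9.25 and 9.20, and Tfam, which helps to transcribe and pack mitochondrial DNA, 10.31, 10.23, 10.32, 10.30 and 10.31. Neither Ppargc1a nor Nrf1 or Tfam was higher than LD by 0.1 in any library. The 4 uncoupling genes had medians of -0.033, 0.000, 0.016 and 0.015. Among them Ucp2 measured 9.40 for LD, 9.53 for CE, 9.64 for RUN, 9.70 for L-RUN and 9.57 for H-RUN, whereas Slc25a14 and Slc25a27 differed from LD in CE by -0.119 and -0.140.

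**Figure D4:**
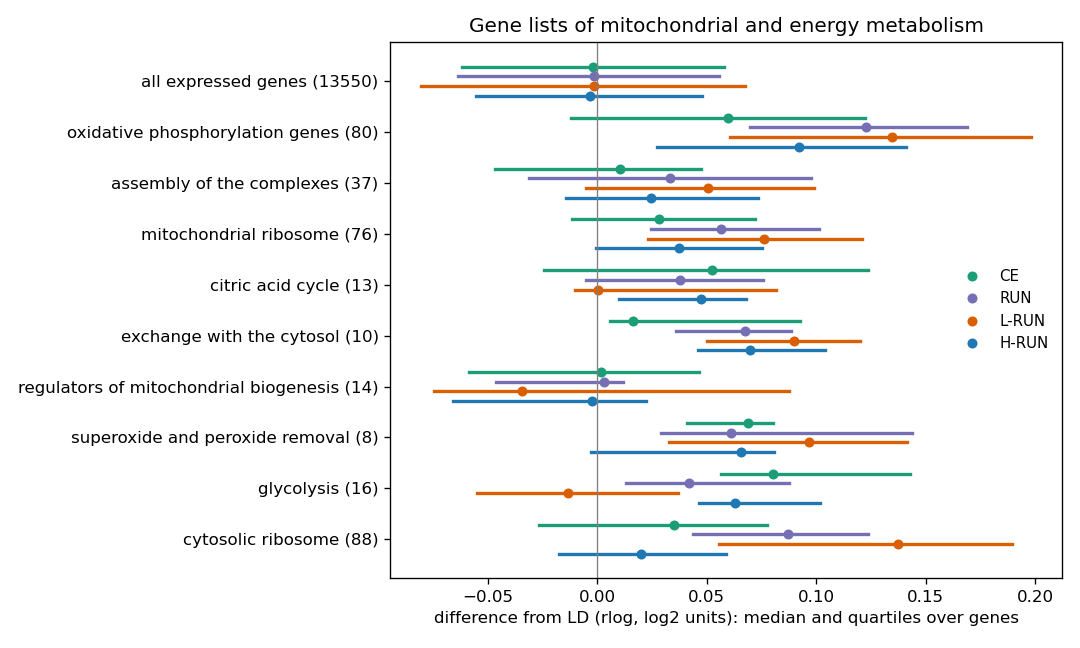
Median and quartiles over genes of the difference from LD (x axis, rlog on the log2 scale) for the oxidative phosphorylation genes and the other lists of energy metabolism (y axis), with 1 colour for each group (CE, RUN, L-RUN, H-RUN). The medians of the oxidative phosphorylation genes in RUN (0.123), L-RUN (0.135) and H-RUN (0.092) lie above those of the assembly factors and of the biogenesis regulators, with the trend with length left in; with it removed the members have 0.040, 0.050 and 0.049 and the regulators 0.032, 0.019 and 0.024.

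Marker genes of other cell types moved with the libraries. The 11 markers of leptomeninges, all expressed, had a summed level of 12.64 for LD, 12.88 for CE, 13.53 for RUN, 14.09 for L-RUN and 12.49 for H-RUN, and 10 of 11 were at least 0.1 above LD in L-RUN. In H-RUN 4 of the 11 lay above LD, and 4 were at least 0.1 below it. The 6 markers of CA1 and CA3 pyramidal cells had a summed level of 13.65 for LD, 13.59 for CE, 13.49 for RUN, 13.31 for L-RUN and 13.61 for H-RUN, all 6 being at least 0.1 lower in L-RUN. The 6 oligodendrocyte markers, of which 6 were also that much lower in L-RUN, had summed levels of 15.02, 14.92, 14.89, 14.80 and 14.98. The 5 microglia markers were below LD in CE, RUN and H-RUN without exception, with medians of -0.099, -0.134 and -0.114, and 4 of them were at least 0.1 lower in H-RUN. Their median in L-RUN was -0.124, and the 5 astrocyte markers had medians of -0.065 for CE, -0.087 for RUN, -0.087 for L-RUN and -0.053 for H-RUN. The part of these cells in the members' differences was not tested.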

How the data were processed

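Per the labels and the study's methods, total RNA of the DG was pooled per group, and libraries were made with a TruSeq kit from polyA RNA. According to the submitters' processing notes, the authors used CASAVA 1.8.2, TopHat 2.0.10 against mm10, HTSeq counts on RefSeq genes and DESeq2 1.10.1. The deposited values are regularized log values (log2 scale), 1 for every gene in every library, normalized over all 5 libraries at once by the authors. They were used as they are. Read counts were not used here, so the depth of each library is unknown and no counting error can be given. How reads matching several genes were counted is not given in the sources used here.

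The groups came from the labels, and 6 differences between libraries were taken without a test. The technical SD was the SD, from the median absolute deviation within 10 deciles of mean level, of RUN minus the log2 of the averaged linear values of its parts, L-RUN and H-RUN. A single library was given its variance divided by 1.5, which assumes an equal mixture and equal noise. Summed levels are log2 of summed linear values. Length and GC came from the longest RefSeq-matched GENCODE transcript by symbol (94.2% of expressed genes), shared stretches from all GENCODE transcripts, and trends were lowess curves (fraction 0.3). The scripts were tested on simulated data.

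Genes were named by a rule: the 3 members of each complex with the largest range, members past 0.3 or opposite in L-RUN and H-RUN by more than 0.1, the isoforms, Ndufa4, Cycs and the Sdh genes. Ndufs1, Ndufs5, Ndufs8, Ndufv1, Ndufa1, Ndufa4l2, Ndufb2, Ndufb6, Ndufb7, Ndufc1, Ndufs4, Atp5b, Atp5e, Gapdh, Ucp2, Slc25a14, Slc25a27, Ppargc1a, Ppargc1b, Tfb1m, Nrf1, Tfam, Prox1 and C1ql2 were named in addition, after their values were seen. Members, lists and sizes were chosen with earlier results of these data known. Software was statsmodels 0.14.6 and scipy 1.17.1 for the fits, pandas 2.3.3 with numpy 2.4.6 for the tables and matplotlib 3.10.9 for the plots, under Python 3.11.15.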

Additional observations from a re-analysis of the deposited data

How the results depend on the processing

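The medians and counts of members changed little with centring on the median of expressed genes, a minimum mean of 7 or no filter. The same held with the GC trend removed. For the 59 members known to share few stretches with other genes, the medians changed little, and counts at 0.1 were not taken. Atp5sl, with no value for sharing, was left out there. These last 2 settings were chosen after seeing the data, as was CE as the baseline. With the trend with transcript length removed, the medians were 0.0271 for CE, 0.0399 for RUN, 0.05 for L-RUN, 0.0485 for H-RUN, -0.007 for L-RUN minus H-RUN and -0.0076 for CE minus RUN. The members at least 0.1 higher were then 18, 15, 22, 16, 1 and 2 in this order (background 12.4%, 9.29%, 13.5%, 8.89%, 10.4% and 10.7%). Those as much lower were 3 for CE, 1 for RUN, 8 for L-RUN and 5 for each of the last 2 comparisons. When LD and CE were averaged as the baseline, the medians were 0.083 for RUN, 0.1049 for L-RUN and 0.0522 for H-RUN. Then 31 members were higher in RUN (background 7.14%), 13 in H-RUN (6.03%) and 0 lower in L-RUN, and Ndufa12 in H-RUN came to -0.0002. With CE as baseline the medians were 0.0479, 0.064 and 0.0213 for RUN, L-RUN and H-RUN. Higher were 15, 25 and 11 members in this order (background 8.65%, 12.9% and 9.37%), and 3 were lower in L-RUN and 4 lower in H-RUN. Shares of all expressed genes at least 0.1 lower were not computed with the length trend removed or with these baselines. The counts of lower members in this paragraph therefore stand without a background and cannot be read as few or many.

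Among named genes at least 0.1 above LD, these lay below the baseline when it was CE. In RUN they were Atp5d (-0.0701), Atp5g1 (-0.031), Cox5b (-0.0348), Cox6a1 (-0.0156), Cox7b (-0.0202), Ndufa12 (-0.0771), Ndufs7 (-0.0344) and Uqcrq (-0.0206). In L-RUN they were Atp5d (-0.0532), Atp5g1 (-0.111), Ndufa12 (-0.0687) and Uqcrq (-0.0092). In H-RUN they were Atp5d (-0.0911), Atp5g1 (-0.0515), Cox5b (-0.1112), Cox6a1 (-0.0279), Cox7b (-0.0963), Ndufa12 (-0.1255), Ndufa7 (-0.0188), Ndufs7 (-0.0452) and Uqcrq (-0.101).

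Quantile normalization and removal of the trend with mean level gave 23 and 20 members higher in L-RUN than in H-RUN (background 11.9% and 11.3%). Both gave 0 members lower than LD in CE and in L-RUN, with no background computed for lower genes. At a size of 0.15 there were 14 members higher in CE, 25 in RUN, 17 in H-RUN and 1 in L-RUN against H-RUN, 4 lower in CE than in RUN, and 0 lower than LD in CE and L-RUN. A cut-off of 0.2 was passed by 9 members for CE, 8 for RUN and 19 for L-RUN, and one of 0.4 by 0 in L-RUN. The shares of all expressed genes at 0.15, 0.2 and 0.4 were not computed, so these counts stand without a background. Of 1362 values of single genes under an alternative, 981 moved by less than the technical SD and 359 moved by more. A further 22 that were at least 0.1 in size turned in sign (turns of smaller differences are among the others). With the trend with length removed, 128 values of single genes moved by more than the technical SD and 28 by less. No paired analysis was possible because each group is 1 library and the replicate numbers only name samples, and for the same reason no replicate could be left out. Depth is unknown, and the causes were not tested.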
